A study of Mus musculus with 2 samples.

Results

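The genes described here encode the nuclear part of mitochondrial complex I and its helpers in the adult mouse adrenal gland. Members were all protein-coding genes whose symbol begins with Nduf and that have a row in the gene tables of both libraries. There were 46 of them among 43346 mouse genes: 36 encode subunits of complex I and 8 encode assembly factors with the prefix Ndufaf. The other 2, Ndufa4 and its relative Ndufa4l2, carry an Nduf name but were grouped with complex IV, where Ndufa4 is placed today. All 46 protein-coding Nduf genes of GENCODE M21 were found. Another 4 Nduf symbols in the tables are not annotated as protein-coding and were not counted as members. Ndufb1-ps, listed among the accessory subunits of the distal membrane arm, was not analysed here. The 36 subunits and the summed share of that arm leave it out.

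The study measured poly(A) RNA over 200 nt from adrenal glands of C57BL/6J mice at 8 weeks of age. The animals were littermates of both sexes, the labels name no genotype or treatment, and they attach the same donor identifier to both samples. The 2 libraries are labelled biological replicates 1 and 2 of a single group, so the design holds no comparison of conditions. Whether the glands of several animals were pooled in a library is not stated in the labels, and the spread between the libraries may hold technical as well as biological differences.

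The tables sum to 48059863 expected counts for replicate 1 and to 53294872 for replicate 2. An expected count is the estimated number of read pairs from a gene, and TPM is that number per effective length, scaled to a fixed total for a library. The tissue label was set beside fixed marker lists: all 8 cortex genes and all 7 medulla genes exceeded 1 TPM in both libraries. All 8 fat markers and 12430 of the 15824 tested genes also reached 1 TPM in both, so this threshold cannot tell tissues apart. Summed marker levels differed between the libraries, for some lists more than for others. The 7 medulla genes held 0.397% of TPM in replicate 1 and 0.366% in replicate 2. Endothelial markers held 0.082% and 0.0713%, and macrophage markers 0.1045% and 0.095%. The 8 cortex genes held 2.53% of TPM in replicate 1 and 3.38% in replicate 2. All 8 were higher in replicate 2 by the adjusted p of the binomial test described below. That cutoff alone passed 29.0% of all tested genes as higher in replicate 2 and 29.2% as higher in replicate 1. The 8 markers of white and brown fat held 1.49% and 0.660%, with 7 of 8 higher in replicate 1, and the brown fat protein Ucp1 stood at 1129 and 544 TPM. The 5 liver markers were low, with summed shares of 0.0006% and 0.0036%, and Ttr was listed at 0 in replicate 1. Erythroid markers held 0.380% and 0.495%. In whole tissue, fewer cells of a type and less RNA per cell cannot be told apart.

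Complex I is the first enzyme of the respiratory chain. It takes electrons from NADH through a flavin and a row of iron-sulfur clusters to ubiquinone and pumps protons across the inner mitochondrial membrane. Its peripheral arm, in the matrix, carries the flavin and the clusters, while its membrane arm holds the proton pumps, whose core is encoded by mitochondrial DNA. Around this core sit accessory subunits, and assembly factors join the modules and leave again. Steroid-producing cells are rich in mitochondria, since cleavage of the cholesterol side chain takes place at their inner membrane.

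Complex I transcripts were abundant in the gland. The 36 subunits together held 1.27% of TPM in replicate 1 and 1.02% in replicate 2, or 1.15% ± 0.182 (SD, n = 2). With Ndufa4 and Ndufa4l2 the 38 genes held 1.20% ± 0.177. The 8 Ndufaf genes held 0.0362% and 0.0247%, or 0.0304% ± 0.00810. The median subunit exceeded the median of the 8 Ndufaf genes 30.9-fold in replicate 1 and 29.4-fold in replicate 2. The 10 matched assembly factors without that prefix, with a median of 36.5 TPM against 4.07 TPM for the Ndufaf genes, are not in this ratio. Of the 46 members, 45 reached 1 TPM in both libraries, and 20 exceeded 100 TPM in both. Levels of the members ranked alike in the libraries (Spearman's rho 0.98 and Pearson's r 0.99 of log2(TPM + 1) across 46 genes, a description, since genes are not independent replicates and share a library).

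**Figure D1:**
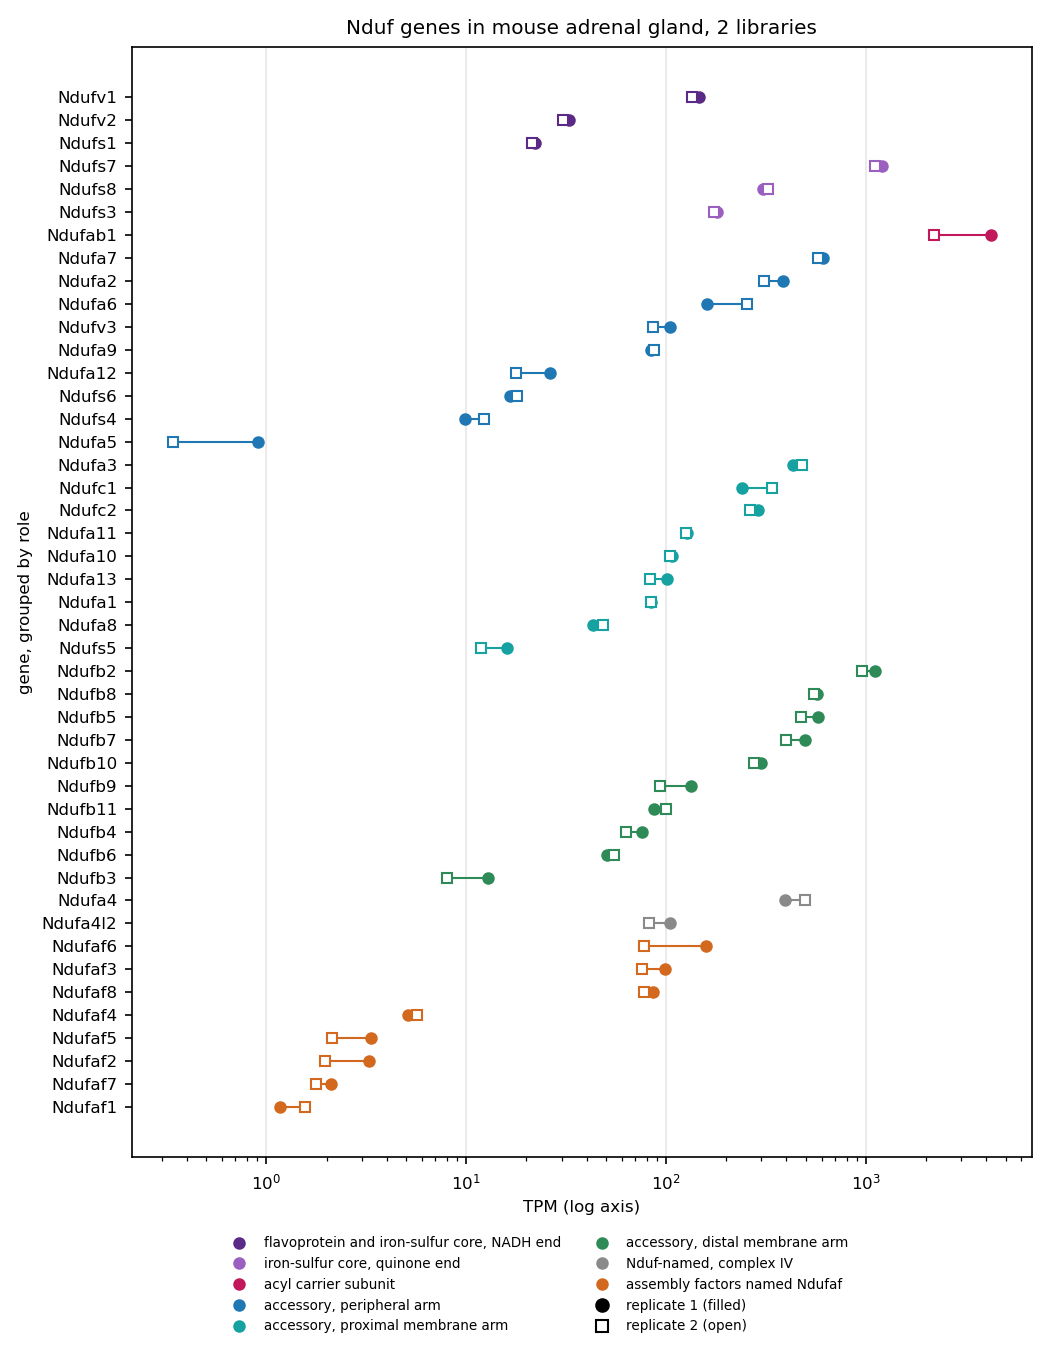
TPM of 45 of the 46 genes in replicate 1 (filled circles) and replicate 2 (open squares) on a log axis, grouped and coloured by role, with a line joining both libraries. Ndufab1 lies highest and Ndufa5 lowest, and 5 of the 8 Ndufaf genes lie below 10 TPM while 3 lie near the level of many subunits.

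The 7 core subunits encoded in the nucleus held 0.209% ± 0.0084 of TPM, and those described here differed in level by end of the electron path. The 3 described here that lead electrons to ubiquinone were high. Ndufs7, which holds the last cluster before ubiquinone (ENSMUSG00000020153.10, mm10 chromosome 10, 80249121 to 80256794, plus strand), stood at 1209.9 TPM in replicate 1 and at 1114 TPM in replicate 2, and pairs of values below keep this order of the libraries. Ndufs8, which carries further clusters of the same segment, stood at 306 and 324 TPM. Ndufs3, their partner at the base of the peripheral arm, stood at 179 and 174 TPM. In each library the order of these 3 named genes was Ndufs7, Ndufs8 and Ndufs3.

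The 3 core subunits of the NADH end were lower. Ndufv1, which binds NADH and the flavin, stood at 147 and 136 TPM. Ndufv2, an iron-sulfur protein beside it, stood at 32.6 and 30.6 TPM. Ndufs1, the large subunit that carries the clusters onward, stood at 22.1 and 21.3 TPM. Ndufs3, the lowest of the 3 described at the ubiquinone end (174 TPM), thus lay above the highest gene of the NADH end (147 TPM) in either library. With 2 libraries this order was not tested.

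Ndufab1, the acyl carrier protein of mitochondria that is also a subunit of both arms (ENSMUSG00000030869.7, mm10 chromosome 7, 122085403 to 122101886, minus strand), was the highest member. Its level was 4231 and 2198 TPM, which was 32.3% and 20.6% of the TPM of the 36 subunits with Ndufa4 and Ndufa4l2. Most of the spread in the summed share belonged to this gene: without Ndufab1 the other 35 subunits held 0.821% ± 0.0362, against ± 0.182 with it.

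The 9 accessory subunits of the peripheral arm held 0.139% ± 0.0026. Ndufa7 was highest at 610.2 and 578 TPM. Ndufa2, a thioredoxin-like subunit, stood at 384 and 309 TPM, and Ndufa6, a partner of the acyl carrier protein, at 159.7 and 255 TPM. Ndufv3, which sits at the tip with the flavin, stood at 105 and 86.4 TPM, and Ndufa9, a nucleotide-binding subunit at the junction with the membrane, at 83.7 and 86.7 TPM. At the other end stood 4 genes of this arm below 30 TPM in both libraries. Ndufa12 was at 26.2 and 17.8 TPM, and Ndufs6, a zinc-binding subunit, at 16.6 and 17.9 TPM. Ndufs4, a late-joining subunit whose loss causes Leigh syndrome, was at 9.90 and 12.3 TPM. Ndufa5 (mm10 chromosome 6, 24518666 to 24528013, minus strand) was lowest of all members with 0.91 and 0.34 TPM, from 16 and 7 expected counts. It was the single member under 1 TPM.

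The 9 accessory subunits of the proximal membrane arm, next to the peripheral arm, held 0.150% ± 0.0067. Ndufa3 led at 432 and 477 TPM, with Ndufc1 at 239 and 338 TPM and Ndufc2 at 288 and 262 TPM. Ndufa11 stood at 128 and 126 TPM and Ndufa1 at 84.2 and 83.9 TPM, the closest pairs of values among these 9 genes relative to their level. Ndufa10, a kinase-like subunit, stood at 107 and 105 TPM, and Ndufa13, also known as GRIM-19, at 100.5 and 82.95 TPM. Ndufa8, which has cysteine motifs and faces the intermembrane space, was at 43.1 and 48.5 TPM. Ndufs5, a cysteine-rich subunit of the intermembrane space, was lowest of them at 15.9 and 11.8 TPM.

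The 10 analysed accessory subunits of the distal membrane arm, the end farthest from the NADH site, held 0.323% ± 0.0319, the highest summed share of the 3 accessory groups in each library. Ndufb2 stood at 1107 and 957 TPM, Ndufb8 at 571 and 551 TPM and Ndufb5 at 577 and 471 TPM. Ndufb9, which like Ndufa6 binds the acyl carrier protein, stood at 133 and 93.1 TPM. Ndufb7 and Ndufb10, both cysteine-rich, stood at 498 and 399 TPM and at 299.9 and 275 TPM. Ndufb11, whose gene lies on the X chromosome, stood at 86.7 and 99.9 TPM, Ndufb4 at 76.2 and 63.3 TPM and Ndufb6 at 50.5 and 54.8 TPM. Ndufb3, a small membrane subunit, was lowest at 12.9 and 8.03 TPM. Ndufb2 and Ndufb3 thus mark the ends of a wide range within a single arm, in both libraries.

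The Nduf-named pair grouped with complex IV differed in level. Ndufa4, the subunit common in most tissues, stood at 395 and 497 TPM, and Ndufa4l2, its relative known to be induced in low oxygen, at 105 and 82.1 TPM. The ratio of Ndufa4 to Ndufa4l2 was 3.78 in replicate 1 and 6.05 in replicate 2. Ndufa4 was the higher gene in both, by a factor that differed between the libraries.

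The Ndufaf assembly factors fell apart into 3 genes above 75 TPM and 5 below 6 TPM, with none between. Ndufaf6, linked to assembly of the proximal membrane arm, stood at 158 and 77.7 TPM. Ndufaf3, which joins the module around ubiquinone to the membrane, stood at 98.7 and 76.1 TPM, and Ndufaf8, which stabilises Ndufaf5, at 85.8 and 77.6 TPM. These 3 genes held most of the summed level of the group.

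The lower assembly factors act at several steps. Ndufaf4, the partner of Ndufaf3, stood at 5.10 and 5.69 TPM. Ndufaf5, an enzyme that hydroxylates Ndufs7, stood at 3.35 and 2.14 TPM, and Ndufaf2, a relative of Ndufa12 that acts late, at 3.27 and 1.97 TPM. Ndufaf7, a methyltransferase of the assembly pathway, stood at 2.11 and 1.78 TPM. Ndufaf1, which acts on the membrane arm, was lowest at 1.17 and 1.56 TPM, from 52 and 73 expected counts. The enzyme Ndufaf5 thus lay far below its substrate Ndufs7 in both libraries.

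Assembly factors without the Nduf prefix covered a similar range with a higher median. Of the 10 matched genes of that list, 9 reached 1 TPM in both libraries, with a median of 36.5 TPM against 4.07 TPM for the 8 Ndufaf genes. Tmem70, which serves both complex I and the ATP synthase, led at 300 and 236 TPM, followed by the membrane-arm factor Timmdc1 at 96.5 and 97.2 TPM. Tmem126b, another membrane-arm factor, was lowest at 0.51 and 0.33 TPM, below each Ndufaf gene. The lists hold 8 and 10 genes and overlap in range, and the difference was not tested.

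Other complexes of the chain were set beside complex I on the same TPM scale. The 38 listed genes of complexes II to V held 4.01% ± 0.432 of TPM. Their medians per gene were 195 TPM for complex II, 838 TPM for complex III, 421 TPM for complex IV and 241 TPM for complex V, against 177 TPM for the core and 106 TPM for the 29 accessory subunits of complex I. These are gene totals, and the transcripts behind those of complexes II to V were not examined. A wide range within a complex was not particular to complex I: Uqcrb of complex III stood at 1.44 and 0.93 TPM while Uqcr11 of the same complex stood at 2973 and 2933 TPM. Of the 7 subunits of complex I encoded by mitochondrial DNA, 6 had counts and mt-Nd3 was listed at 0. Their summed share was 0.670% in replicate 1 and 0.332% in replicate 2, and mt-Nd4l, which overlaps mt-Nd4, stood at 4710 and 1053 TPM. The other 5 counted genes went the opposite way, with log2 ratios of replicate 1 over replicate 2 from -0.47 for mt-Nd6 to -0.07 for mt-Nd1. All 5 were higher in replicate 2 by the adjusted p of the binomial test described below, as were 29.0% of all tested genes. Poly(A) selection and overlap make the mitochondrial values uncertain.

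**Figure D2:**
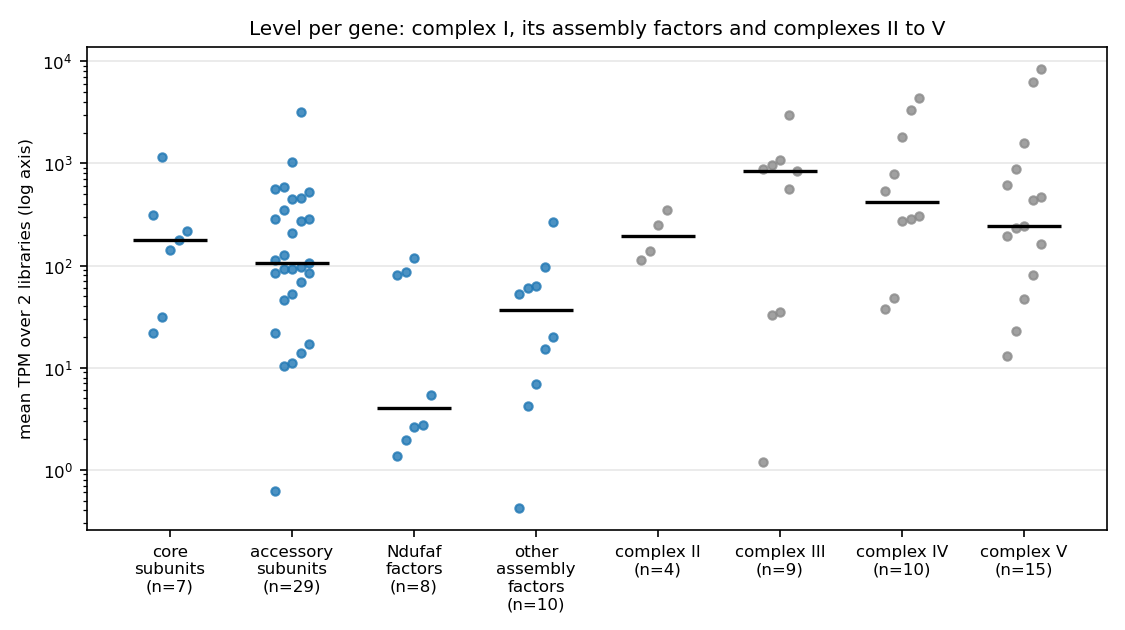
Mean TPM over 2 libraries of each gene (points, log axis) with the median of each group (bars), for complex I in blue and complexes II to V in grey. The median of the 8 Ndufaf genes, 4.07 TPM, lies below those of the other groups, and the core subunits run from 21.7 to 1162 TPM.

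Replicates 1 and 2 were compared gene by gene with a two-sided exact binomial test on rounded counts, scaled by TMM and adjusted by the Benjamini-Hochberg method over 15824 genes. A gene was called at an adjusted p under 0.05 and at least 2-fold. All 46 members had a summed count of at least 20 and were tested. A single member was called, Ndufab1, against a background of 6.92% of all tested genes called in either direction, 4.35% higher in replicate 1 and 2.57% higher in replicate 2. By the adjusted p alone, 27 members were higher in replicate 1 and 8 in replicate 2, against a background of 58.3% of tested genes (29.2% higher in replicate 1 and 29.0% higher in replicate 2). With scaling to the summed spike-in counts these calls turned around, to 3 members higher in replicate 1 and 33 in replicate 2. The median log2 ratio of replicate 1 over replicate 2 was 0.15 over the members and -0.0045 over all tested genes. The test covers counting error of these 2 libraries only, and says nothing of a condition.

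Ndufab1 had 75048 expected counts in replicate 1 and 35494 in replicate 2. Its log2 ratio was 1.23 with an exact 95% interval from 1.21 to 1.25. When replicate variation was put in by assumption (edgeR's exact test, coefficient of variation 0.2), its adjusted p was 0.133 and no member was called. With scaling to the summed spike-in counts its log2 ratio was 0.80, below the fold required, and Ndufa6 was called in its place at -1.09. Fat markers moved the same way as Ndufab1 between the libraries, at 1.49% and 0.660% of TPM, and their part in the result was not tested.

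**Figure D3:**
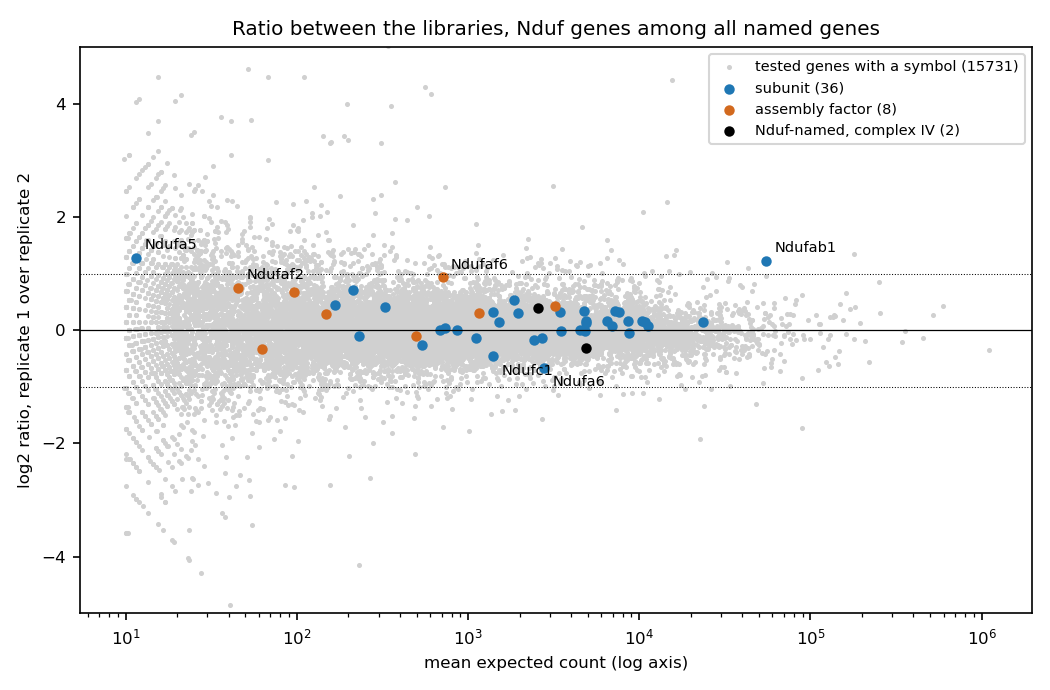
Log2 ratio of replicate 1 over replicate 2 against the mean expected count (log axis) for 15731 tested genes that have a symbol (grey) and the 46 Nduf genes (coloured by kind). Dotted lines mark 2-fold, 54 genes lie outside the plotted range of 5 log2 units either way, and of the Nduf genes Ndufab1 and the sparsely counted Ndufa5 lie beyond 2-fold.

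The other large ratios belonged mostly to low genes. Ndufa5 had the highest log2 ratio of all members, 1.28, but its interval ran from -0.02 to 2.86 and its adjusted p by the binomial test was 0.0626. Ndufaf6 followed at 0.93 (interval 0.78 to 1.09), then Ndufaf2 at 0.75 (0.13 to 1.41), Ndufb3 at 0.71 (0.43 to 1.00) and Ndufaf5 at 0.68 (0.25 to 1.12). Of the 898 and 521 expected counts of Ndufaf6, 852 and 464 were assigned to Ndufaf6-206, a transcript not annotated as protein-coding. Coding transcripts of Ndufaf6 stood at 1.49 and 1.46 TPM, so its ratio is not one of coding transcripts. The cutoff on the adjusted p alone passed 58.3% of all tested genes, 29.2% higher in replicate 1 and 29.0% higher in replicate 2. Of the 8 Ndufaf genes, 5 were higher in replicate 1 by the adjusted p, none was higher in replicate 2, and none reached 2-fold. Under spike-in scaling Ndufaf6 alone was higher in replicate 1 by the adjusted p (log2 ratio 0.50), while Ndufaf1 (-0.77), Ndufaf4 (-0.54) and Ndufaf8 (-0.13) were higher in replicate 2.

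Genes with the opposite direction came from several roles. Ndufa6, with 2022 and 3538 expected counts, had a log2 ratio of -0.66 (interval -0.74 to -0.58). Ndufc1 was at -0.46 (-0.57 to -0.35), Ndufa4 at -0.32 (-0.38 to -0.26) and Ndufs4 at -0.27 (-0.44 to -0.09). Ndufaf1 was at -0.34, with an interval from -0.88 to 0.19. Core subunits moved little: all 7 lay within 0.5 log2 units of 0, as did 38 of the 46 members and 11935 of the 15824 tested genes. Scaling to spike-ins lowered the median log2 ratio of all tested genes by 0.43, and under it 38 of 46 members lay below 0 in place of 14, so directions hold relative to the whole of the mouse transcripts only.

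Related lists moved in the same range. Of complexes II to V, 21 of 38 genes were higher in replicate 1 and 8 in replicate 2 by the adjusted p. None of them reached 2-fold, and the median log2 ratio was 0.12. The same cutoff passed 58.3% of all tested genes, 29.2% higher in replicate 1 and 29.0% higher in replicate 2. Directions in these lists are given on TMM scaling only. Of 8 listed regulators of mitochondrial genes, 2 were higher in replicate 1 and 2 in replicate 2. Esrra, a nuclear receptor for oxidative genes, was the highest regulator at 95.6 and 71.5 TPM, and Yy1 followed at 43.3 and 52.6 TPM. Ppargc1a, the coactivator known for mitochondrial biogenesis, was at 0.47 and 0.57 TPM.

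The gene totals hide which transcripts were assigned the reads. The tables list 182 transcripts of the members, all matched to GENCODE M21; 16 members have a single transcript and 30 have several. The leading transcript by TPM was the same in both libraries for 28 of these 30 genes, and held over 90% of the gene in both libraries for 11. In 5 genes a transcript not annotated as protein-coding led in both libraries, and in 13 genes such transcripts held over 10% of TPM in both. They are mostly retained-intron and processed transcripts, but also targets of nonsense-mediated decay, which have a coding sequence, as in Ndufs6. These shares rest on the authors' division of reads among overlapping models.

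**Figure D4:**
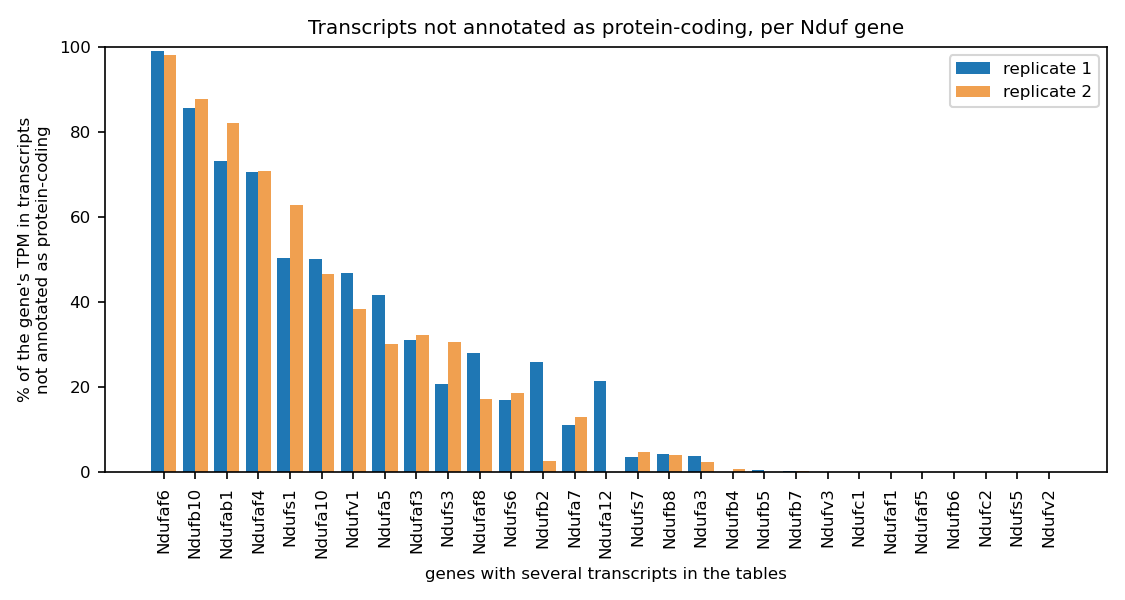
Percent of each gene's TPM assigned to transcripts not annotated as protein-coding, for 29 of the 30 Nduf genes with several transcripts, in replicate 1 (blue) and replicate 2 (orange). Ndufaf6, Ndufb10, Ndufab1 and Ndufaf4 exceed 70% in both libraries, and most of the genes on the right side lie near 0.

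The genes led by a non-coding model included the highest member. Ndufab1-208, a retained-intron model of 443 nt, held 73.2% of Ndufab1 TPM in replicate 1 and 82.1% in replicate 2. This model holds 146 nt of an intron of 2904 nt, not the whole intron. By expected counts the coding model Ndufab1-203 of 1416 nt led, with 47842 counts against 26623 in replicate 1 and 17730 against 17199 in replicate 2. Coding models of Ndufab1 stood at 1132 and 393 TPM, which placed the gene behind Ndufs7 and Ndufb2 by its mean. Ndufb10-202, which retains a whole intron of 160 nt, held 84.9% and 85.9% of Ndufb10 TPM, and coding models of this cysteine-rich subunit stood at 43.0 and 33.6 TPM out of 300 and 275 TPM. The sequences below show the splice junction at which each retained-intron model parts from the coding one. They are from GENCODE M21 transcripts on GRCm38, 5′ to 3′, with the last exon bases before the donor site in capitals (the exon ends at chromosome 7, 122096609 for Ndufab1 and at chromosome 17, 24722381 for Ndufb10).
Ndufab1-203, coding: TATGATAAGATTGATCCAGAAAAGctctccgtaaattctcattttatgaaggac
Ndufab1-208, retained intron: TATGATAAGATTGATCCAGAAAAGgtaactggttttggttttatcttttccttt
Ndufb10-201, coding: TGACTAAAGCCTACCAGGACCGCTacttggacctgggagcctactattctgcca
Ndufb10-202, retained intron: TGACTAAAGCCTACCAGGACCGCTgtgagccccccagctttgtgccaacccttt

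Other such assignments bear on genes named above. Ndufaf6-206, a processed transcript of 352 nt, held 99.1% and 97.0% of Ndufaf6 TPM, and coding models of the gene stood at 1.49 and 1.46 TPM. On coding models alone Ndufaf6 would thus lie among the low assembly factors. Ndufaf4-202 held 70.6% and 71.0% of Ndufaf4, and Ndufs1-210, a retained-intron model of 826 nt, held 47.9% and 59.1% of Ndufs1. Ndufs1-203, the coding model of 2590 nt, had more expected counts than it in both libraries, 392 against 232 and 333 against 299. In Ndufa10, transcripts not annotated as protein-coding held 50.2% and 46.6% of TPM but 21.3% and 19.8% of expected counts. In Ndufv1 they held 47.0% and 38.4% of TPM but 13.0% and 10.4% of expected counts.

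The leading model differed between the libraries in 2 genes, both times between coding models. In Ndufaf8, the example given here, Ndufaf8-201 held 52.7% and 41.2% and Ndufaf8-202 held 19.2% and 41.5%. Ndufv3, a subunit known to occur in a short and a long form, was mostly the short one: Ndufv3-202 of 485 nt stood at 93.0 and 76.9 TPM and Ndufv3-201 of 1537 nt at 11.6 and 9.05 TPM.

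Near-identical copies bear on the level of 2 further members. A search for annotated transcripts with at least 95% identity over at least 150 nt and 50% of the copy found 9 copies of 8 members, 8 of them processed pseudogenes, and 5 of them with 20 counts or more. The largest was Ndufb4c, a processed pseudogene at chromosome 15, 73809507 to 73809896, on the minus strand. It is identical to Ndufb4 over all of its 390 nt, from start codon to stop codon. It stood at 685 and 637 TPM against 76.2 and 63.3 TPM for Ndufb4, a distal membrane subunit, and held 69.3% and 72.4% of the counts of the pair. A read pair that lies within these 390 nt cannot be told apart by its sequence, as the first bases of both show (GENCODE M21, 5′ to 3′).
Ndufb4: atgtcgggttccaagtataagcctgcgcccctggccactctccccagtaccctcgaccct
Ndufb4c: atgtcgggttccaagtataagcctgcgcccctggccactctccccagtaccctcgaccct

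Gm15920, a processed pseudogene at chromosome 5, 130188395 to 130188796, matched Ndufa12 over 402 nt at 99.5% identity. It held 43.0% of the counts of the pair in replicate 1 and 66.6% in replicate 2, with 37.6 and 73.7 TPM against 26.2 and 17.8 TPM for Ndufa12. The copy thus held the smaller part of the pair in replicate 1 and the larger part in replicate 2. The pair differs by A176G and T455C, where positions are counted from 1 at the 5′ end of the transcript Ndufa12-204 and the base of Ndufa12 comes first. Within the match only reads over such a base tell them apart, and it is the capital letter below.
Ndufa12, first site: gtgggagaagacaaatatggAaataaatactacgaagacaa
Gm15920, first site: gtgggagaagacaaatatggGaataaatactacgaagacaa
Ndufa12, second site: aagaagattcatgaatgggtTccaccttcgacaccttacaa
Gm15920, second site: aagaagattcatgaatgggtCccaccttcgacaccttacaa

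The other copies took small shares. Gm4459 and Ndufab1-ps, both near-identical to Ndufab1, held 0.125% and 0.0435% of the counts of their pair with it in replicate 1 and 0.357% and 0.0826% in replicate 2. Gm12251 held 0.519% and 0.693% of its pair with Ndufs3. No copy under these limits was found for Ndufa5, the lowest member, among annotated transcripts, and copies elsewhere in the genome were not searched.

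Promoter windows were read from RefSeq on GRCm38.p6, from 250 bases before to 50 after each gene start, for 40 members with 42 windows. Members without a window included Ndufa2, Ndufa4l2, Ndufaf6, Ndufb9 and Ndufs1. Motifs of 4 regulators were searched on both strands as exact letters and compared with all 32851 windows. The NRF1 motif GCATGCGC occurred in 5 of 42 member windows (11.9%) and in 2.71% of all windows. The YY1 motif AAGATGGCG occurred in 6 (14.3%) and in 1.40%. The ETS motif CCGGAAGT, known from GABPA, occurred in 1 (2.38%) and in 3.89%, and CAAGGTCA, bound by NR5A1 and ESRRA, in 1 (2.38%) and in 1.56%. A match is a description of letters and shows no binding.

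The windows of the highest members with each motif are shown 5′ to 3′ on the strand of the gene, with the match in capitals. The NRF1 matches of Ndufa6 and Ndufa11 begin 83 and 58 bases before the gene start. The YY1 matches of Ndufs7 and Ndufc1 begin at base 25 and base 23 after it. This gene start is the RefSeq one, and for Ndufs7 it lies inside the gene span given above, not at its first base. All 6 YY1 matches lay between base 11 and base 36 after the start, and in 5 of the 6 the ATG within the letters was the annotated start codon of the gene, so these letters also serve as coding sequence. The matches of Ndufs3 and Ndufs5 read on the opposite strand.
Ndufa6, NRF1, chr15:82354351-82354410, minus strand: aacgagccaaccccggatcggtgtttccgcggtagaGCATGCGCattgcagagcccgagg
Ndufa11, NRF1, chr17:56717668-56717727, plus strand: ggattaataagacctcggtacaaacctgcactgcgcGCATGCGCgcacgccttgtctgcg
Ndufs7, YY1, chr10:80249437-80249497, plus strand: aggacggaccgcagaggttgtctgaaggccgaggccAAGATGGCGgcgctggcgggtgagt
Ndufc1, YY1, chr3:51408909-51408969, minus strand: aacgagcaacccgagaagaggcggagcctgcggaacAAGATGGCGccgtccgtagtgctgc
Ndufs3, ETS, chr2:90904698-90904757, minus strand: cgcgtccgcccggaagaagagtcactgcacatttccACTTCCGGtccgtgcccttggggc
Ndufs5, NR5A1 and ESRRA, chr4:123718391-123718436, minus strand: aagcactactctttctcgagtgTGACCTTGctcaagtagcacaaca

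The members with a match did not share a level. The 5 genes with the NRF1 motif ran from Ndufa6 at 207 TPM down to Ndufaf5 at 2.75 TPM by their mean, and the 6 with the YY1 motif from Ndufs7 at 1162 TPM to Ndufs4 at 11.1 TPM. Across the 46 members the mean TPM went with a shorter listed gene length (Pearson's r -0.42 on log2 values and Spearman's rho -0.42 over genes, a description). The listed length is not fixed by the annotation and can differ between the libraries, as for Ndufab1 at 706 and 621 nt. TPM is itself a number per effective length, so it is not independent of length. Gene lengths ran from 320 to 2733 nt with a median of 740 nt, and 14 members were under 600 nt, where TPM depends most on the fragment length assumed. Per listed gene length in place of effective length, the order of the members stayed close (Spearman's rho 0.99 over 46 genes). That measure keeps the same division of reads among transcripts. With TPM of coding transcripts alone, the rho to the mean TPM was 0.92.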

How the data were processed

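Poly(A) RNA of mouse adrenal gland was measured in 2 libraries of 1 group. The deposited gene and transcript tables hold, per the file headers, an expected count and a TPM for each feature with posterior means of both, and a percent of the gene for each transcript. An expected count is not normalized and is fractional where the authors shared reads between features. The deposited readme files name mm10 and GENCODE M4. The aligner and quantifier were not given in the sources used here. Identifiers were matched without version to GENCODE M21 (42462 of 43346). Files in mm9 were not used. Transcript shares were computed from transcript TPM, and TPM shares over mouse genes without spike-ins.

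For the comparison of libraries, expected counts were rounded, and genes from a summed count of 20 upward were tested with the exact binomial test (scipy 1.17.1) on TMM effective sizes (edgeR 4.0.16, R 4.3.3). Log2 ratios use a prior count of 0.5 and exact 95% intervals, which cover counting error only. The script was tested on simulated data. Copies were searched with BLAST 2.17.0, an analysis added after seeing the tables. Alternatives used DESeq2 1.42.0 size factors, spike-in scaling, other count and TPM columns, and left-out genes or libraries.

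Members, lists, motifs and tests were chosen with earlier results of these data known. Named in full are the core subunits, all Ndufaf genes, the 5 highest and lowest other members, called members, the 5 highest and lowest log2 ratios, the complex IV pair, and genes whose leading transcript differs between libraries or holds under 50%. Other members are examples of their group. A member is counted in the totals but not reported here by name.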

Additional observations from a re-analysis of the deposited data

How the results depend on the processing

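No paired analysis was possible because there is a single group of 2 libraries. The number of members called, 1, rose to 35 with no minimum fold and was 0 in edgeR's exact test with an assumed coefficient of variation of 0.2, where 244 of all genes were called in place of 1095. It was 1 with DESeq2 size factors, posterior mean counts and a summed count of at least 1 (Ndufab1), and 1 with spike-in scaling (Ndufa6). The median log2 ratio of the members, 0.15, became -0.28 with spike-in scaling. The summed share of subunits with Ndufa4 and Ndufa4l2, 1.20%, was 0.880% on protein-coding transcripts only and 0.875% without Ndufab1, and ran from 1.08% to 1.32% without replicate 1 or 2. The share of Ndufaf genes, 0.0304%, was 0.0136% on protein-coding transcripts only, and ran from 0.0247% to 0.0362% over the libraries. The ratio of the median subunit to the median Ndufaf gene was 30.2 as a mean over both libraries. It was 27.1 per listed gene length, 43.5 on protein-coding transcripts only and 28.5 without Ndufab1. It ran from 29.4 to 30.9 over the libraries, and leaves out assembly factors without the Ndufaf prefix. The 5 genes led by a non-coding transcript were 3 by expected counts (Ndufaf4, Ndufaf6 and Ndufb10). At a threshold of 5 TPM, 41 members were detected in place of 45. Settings with protein-coding transcripts, without Ndufab1, with added copies and with other measures of the leading transcript were chosen after seeing the data. The causes of these shifts were not tested. Depth limits the ratios of Ndufa5, Ndufaf1 and Ndufaf2, which rest on under 100 counts in each library.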
